A study of Mus musculus with 4 samples.

Results

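Distal exon peaks are Zeb1-associated regions whose centre fell in an exon more than 5000 bp from the transcription start site (TSS) of the gene named for the peak. They were taken from the annotation and the TSS distance that the authors gave each peak, and the rule itself uses no read or enrichment value. The unified list held 871 such peaks among 17435, or 4.996% (95% Wilson interval 4.68 to 5.33%), and they made up 12.9% of the 6737 peaks beyond 5000 bp of a TSS. The list came from chromatin immunoprecipitation followed by sequencing in mouse embryonic stem cells (mESC) of the line D3, cultured in the serum-free medium GS with 1 μM PD0325901 (an inhibitor of MEK), 3 μM CHIR99021 (an inhibitor of GSK-3) and 20 ng per mL LIF. There were 3 Zeb1 ChIP libraries, made with 8 μg of antibody from chromatin fixed in 1% formaldehyde and cut to about 200 bp, and 1 input library without antibody. Each peak carried the authors' mean treatment reads, mean input reads and mean enrichment, which is the ratio of treatment to input after scaling for mapped reads. Over the peaks of the list with input reads, this enrichment had a median of 2.07 times the plain ratio of the printed mean reads, with 5th and 95th percentiles of 1.89 and 2.33. No value per library was in the list, so no SD can be given, the number of aligned reads in each library cannot be read from it, and peaks were treated as features of 1 list and not as replicates.

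Zeb1 is a transcription factor with a cluster of zinc fingers near each end of the protein and a homeodomain between them. Its zinc fingers recognise E-boxes of the form CACCTG, and it is best known as a repressor of epithelial genes such as Cdh1, the gene of E-cadherin, during the passage from epithelial to mesenchymal cells. It recruits co-repressors that include histone deacetylases, and it forms a feedback loop with the miR-200 family, whose members target its messenger RNA. Exons differ from their surroundings in ways that bear on such a site. Coding sequence is richer in G and C than the introns around it, and most internal exons are short, whereas the last exon is often long. The 5´ splice site, or splice donor, at the end of an exon often reads CAG before the cut and GTA or GTG after it. The joined letters CAGGTA and CAGGTG are the reverse complements of TACCTG and CACCTG, so a splice donor can contain an E-box of this type without any relation to Zeb1.

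The following stretches of GRCm38 (mm10) show E-boxes inside the exons of 4 of the most enriched distal exon peaks and of the Plec peak, which had the most treatment reads. Each is the E-box nearest to the peak centre within the annotated exon, with 60 bases on either side, read 5′ to 3′ on the strand of the gene, and capitals mark CACCTG or TACCTG or their reverse complements.
Klhl31, exon 3 of 3, chr9:77655596-77655721, plus strand: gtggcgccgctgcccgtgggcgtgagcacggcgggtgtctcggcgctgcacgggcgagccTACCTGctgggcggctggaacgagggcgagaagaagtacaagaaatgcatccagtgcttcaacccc
Cacna1i, exon 9 of 37, chr15:80358832-80358957, plus strand: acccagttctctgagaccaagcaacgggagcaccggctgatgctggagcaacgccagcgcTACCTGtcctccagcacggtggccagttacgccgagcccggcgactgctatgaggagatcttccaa
Adgrl3, exon 2, chr5:81329868-81329993, plus strand: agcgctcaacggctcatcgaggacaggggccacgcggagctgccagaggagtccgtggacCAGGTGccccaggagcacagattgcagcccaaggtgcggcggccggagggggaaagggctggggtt
Ssh1, exon 14 of 14, chr5:113942753-113942878, minus strand: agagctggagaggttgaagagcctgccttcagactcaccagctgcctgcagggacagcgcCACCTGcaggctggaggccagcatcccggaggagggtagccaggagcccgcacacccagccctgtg
Plec, last exon, chr15:76177678-76177803, minus strand: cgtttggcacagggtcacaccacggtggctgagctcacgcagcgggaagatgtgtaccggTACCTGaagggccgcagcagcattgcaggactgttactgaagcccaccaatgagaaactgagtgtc

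The next stretches show the other kind of match, in which the E-box lies across a splice donor of an exon covered by a distal exon peak, in genes whose peaks are described below. The capitals mark the match, whose first 3 letters are the end of the exon and whose last 3 are the start of the intron, again on the strand of the gene in GRCm38.
Scaf1, chr7:45005808-45005873, minus strand: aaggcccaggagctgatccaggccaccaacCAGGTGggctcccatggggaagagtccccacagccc
Bcl9l, chr9:44508402-44508467, plus strand: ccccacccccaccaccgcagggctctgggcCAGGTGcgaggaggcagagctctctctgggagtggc
Kmt2d, chr15:98854150-98854215, minus strand: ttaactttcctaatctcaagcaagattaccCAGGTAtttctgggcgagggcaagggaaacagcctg
Jag2, chr12:112913112-112913177, minus strand: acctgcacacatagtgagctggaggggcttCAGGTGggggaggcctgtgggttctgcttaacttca

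The length of the distal exon peaks ranged from 1100 to 13750 bp around a median of 1850 bp. They had a median of 43.7 treatment reads (quartiles 32 and 65.6) and 14.4 input reads (11 and 20). Their median enrichment over input was 6.6, with quartiles of 5 and 8.66 and a range from 2.25 to 50.6. Enrichment was at least 5 in 657 of them (75.4%) and at least 10 in 144 (16.5%). Across the 871 peaks, which share their libraries and input, enrichment rose with treatment reads (Spearman's rho 0.491), with GC content (0.404) and with peak length (0.297), and fell with input reads (-0.291). Enrichment is computed from treatment and input reads, so its relations with both are partly set by its formula. The median distance to the TSS of the named gene was 17150 bp, with quartiles of 8755 and 35538 bp. In 256 peaks it was at most 10 kb and in 54 it was above 100 kb.

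The rule was checked against the reference annotations. The centre lay in an exon of a curated RefSeq transcript in 762 of the 871 peaks (87.5%), and in an exon of GENCODE for the gene given in the annotation in 865. A RefSeq TSS of any gene was within 5 kb of the centre in 30 peaks (3.44%). At the limit itself, the 3 peaks just above it were at 5011 bp in C77080 (enrichment 10.4), at 5031 bp in the pseudogene Gm16372 (20.5, with 3 input reads) and at 5086 bp in Ccdc88b (8.3). Exon peaks closer to a TSS are counted as promoter peaks in the authors' annotation, and 1537 promoter peaks had an exon in the detailed one. The 3 just below the limit were at 4988 bp from the TSS of Rasip1 (enrichment 10.7), at 4984 bp from E030044B06Rik (8.1) and at 4944 bp from Gm10778 (4.26).

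Enrichment was compared with that of the distal intron peaks, to ask whether peaks within genes differed between exon and intron. The share at or above 6.5, the median of the list, was 51.8% in distal exon peaks (451 of 871, 95% Wilson interval 48.5 to 55.1%), beside 50.2% of all peaks. It was 39.8% in the 1749 distal intron peaks (37.5 to 42.1%), so the odds were 1.62 times higher in exon peaks (two-sided Fisher's exact test, p = 7.59e-09, adjusted p = 5.32e-08 by Benjamini-Hochberg over 7 tests). Among the 2999 distal intergenic peaks the share was 42.1% (40.4 to 43.9%), an odds ratio of 1.47 for exon peaks (Fisher's exact p = 5.61e-07, adjusted p = 1.96e-06). The median enrichment was 5.75 in distal intron peaks, 5.64 in distal intergenic peaks and 6.74 in promoter peaks. The difference from both distal classes lay in the lower part of the range. Enrichment of at least 5 was found in 75.4% of exon peaks, 60.3% of intron peaks and 56.95% of intergenic peaks, whereas enrichment of at least 10 was found in 16.5%, 14.6% and 20.1%. Among peaks with enrichment of at least 5, a selection on the compared measure itself, 50.8% of exon peaks and 48.0% of intron peaks reached 7.45, the median of all peaks so selected (odds ratio 1.12, Fisher's exact test, adjusted p = 0.32, the highest among the alternatives of this comparison). That selection removes the range below 5, so it describes the upper range only. With treatment reads per kb in place of enrichment, the comparison with intergenic peaks turned, with 40.1% of exon peaks and 41.9% of intergenic peaks at or above the median of the list (odds ratio 0.925, Fisher's exact test, adjusted p = 0.384). Intergenic peaks were shorter, with a median of 1450 bp, and had more input reads per kb, 8.29 against 7.32 in exon peaks. LINE, LTR or SINE elements held 70.6% of intergenic, 39.3% of intron and 0.689% of exon peaks. Without such peaks the odds ratio against intron peaks was 1.64. The comparison with intergenic peaks was not repeated without them, so it sets exon peaks mostly against peaks in these elements.

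**Figure D1:**
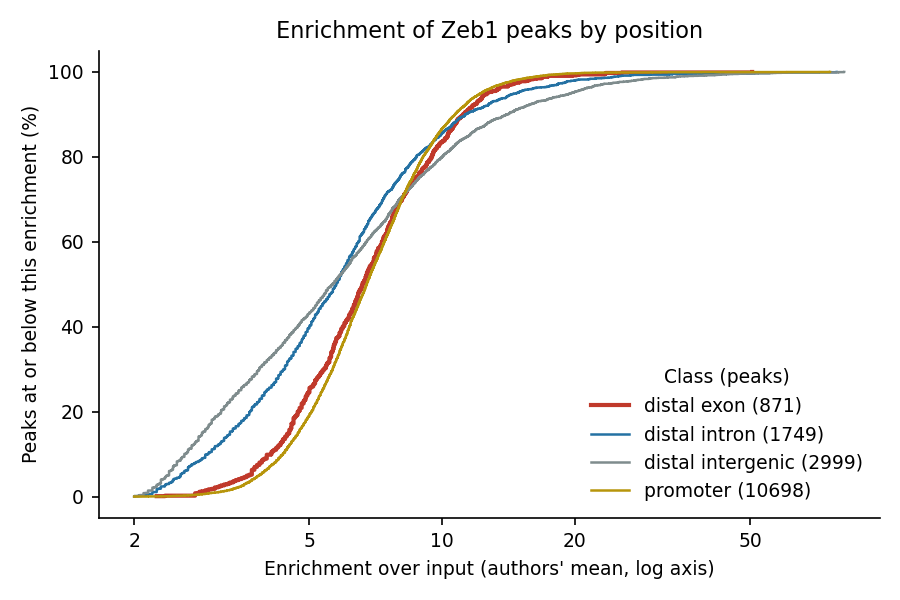
Cumulative share of peaks (vertical axis, %) by enrichment over input (horizontal axis, log scale, the authors' mean for each peak) in 4 classes of Zeb1 peaks. The line of the 871 distal exon peaks runs beside that of the promoter peaks, with medians of 6.6 and 6.74, and to the right of the distal intron and intergenic lines below an enrichment of about 8.

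The peak with the highest enrichment among distal exon peaks, 50.6, lay in the last exon of Klhl31, which encodes a Kelch-like protein of skeletal muscle, on Chr. 9 from 77654601 to 77656300. It had 46.9 treatment reads over 2 input reads, the lowest input of all distal exon peaks. The next was in exon 9 of Cacna1i, a T-type calcium channel gene (enrichment 25.6, 39 treatment and 3 input reads). A peak in exon 2 of Adgrl3, the adhesion receptor latrophilin-3, had an enrichment of 23.5 with 35 treatment and 3 input reads. Ssh1, a phosphatase that activates cofilin, had a peak in its last exon with an enrichment of 23.4. Further peaks among the 15 with the highest enrichment were in genes of neuronal and cardiac membrane proteins. They were Slc12a5, the potassium chloride cotransporter of neurons (20.2), Hcn4, the pacemaker channel of the sinoatrial node (16.9), and Grm4, a metabotropic glutamate receptor (16.9). Apc2 and Bcl9l, both linked to Wnt signalling, had 16.8 and 16.4, and Scaf1, a factor that binds the tail of RNA polymerase II, had 17.4. Aff3, a gene of the AF4 family of transcription elongation factors, had 19.8 and Mtus2, a microtubule-associated protein, had 16.1. The processed pseudogenes Gm16372 (20.5) and Gm12892 (17.4) also held peaks of this order. Of these 15 peaks, 11 had fewer than 10 input reads and their median input was 6.5 reads, so small changes in the input would move their enrichment. An exon of at least 1000 bp held the centre of 9 of them.

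Ordered by treatment reads instead, the first 10 peaks were at least 3500 bp long, and 7 of them were centred in exons of 1000 bp or more. The Plec peak, on Chr. 15 from 76170651 to 76184400, was the longest and had the most treatment reads, 477 over 70.3 input reads (enrichment 11.4). Plec encodes plectin, a giant linker of the cytoskeleton, and the centre of the peak fell in its last exon of 7412 bp. Map1s, a microtubule-associated protein, had 362 treatment and 71 input reads (enrichment 10.4). A peak at 6820431F20Rik on Chr. 8 had 353 treatment reads but also 157 input reads, the highest input of all distal exon peaks, and an enrichment of 4.89. Apc2 was high by both orders, with 286 treatment and 30.1 input reads over 7150 bp, centred in a last exon of 7224 bp. Jag2, a ligand of Notch receptors, had 261 treatment and 36.3 input reads over 12200 bp (enrichment 12.7), centred in an exon of 86 bp. Ahdc1, a gene for a protein with an AT-hook (247 treatment reads, enrichment 12.3), Kif26a, an atypical kinesin (229, 12.4), the zinc finger gene Zfp865 (223, 11.3) and Shank1, a scaffold of excitatory synapses (222, 11.5), followed. Cep131, a centrosomal protein, had 235 treatment reads over 12100 bp and an enrichment of 6.41. The other peaks among the 5 longest were in Flnc, the muscle filamin (11100 bp, enrichment 3.75), and Kmt2d, a methyltransferase of histone H3 (9800 bp, enrichment 12.7). Across distal exon peaks, treatment reads rose with peak length (Spearman's rho 0.806 over 871 peaks).

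**Figure D2:**
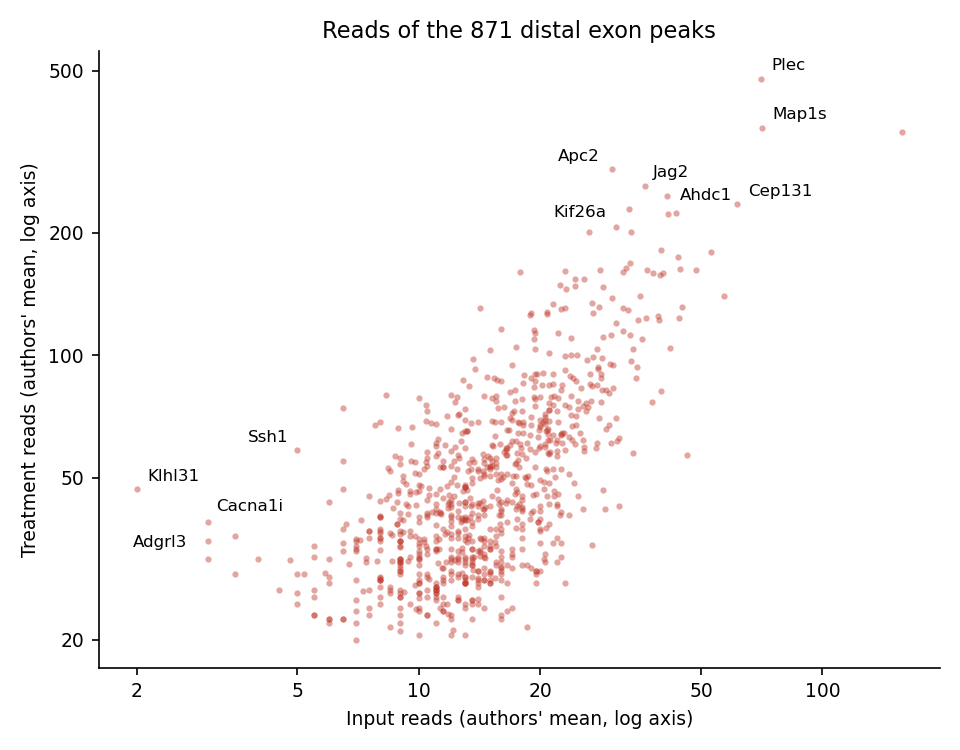
Treatment reads (vertical axis) against input reads (horizontal axis) of each of the 871 distal exon peaks, both as the authors' means on log axes, with 1 point per peak and the exon's gene named for some of the extreme ones. Klhl31 stands at the far left with 2 input reads, Plec at the top with 477 treatment reads, and the unnamed point at the far right is the peak at 6820431F20Rik with 157 input reads.

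The gene that held the exon was often not the gene named for the peak, since the list names the gene with the nearest TSS. The holding gene was found in GENCODE for 866 peaks, and in 456 of them (52.7%) it differed from the named gene after older symbols were matched. Among distal intron peaks with a holding gene the names were the same in 54.9%, against 47.3% in distal exon peaks. The peak in Gli2, the zinc finger factor of Hedgehog signalling, was named for Tfcp2l1, a pluripotency factor 209230 bp away. The Scaf1 peak was named for Mir7054, the Jag2 peak for Mir6941 and the Ssh1 peak for Coro1c. A microRNA gene was named for 48 distal exon peaks, and in 0 of them was the centre in an exon of a microRNA gene. Genes below are therefore those that hold the exon, except where promoter peaks of the named genes are compared.

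Protein-coding genes held 777 of the 866 peaks, with a median enrichment of 6.65. These were 681 of 21924 protein-coding genes, or 3.11%. Processed pseudogenes, which are copies of messenger RNA inserted into the genome without introns, held 38 peaks with a median enrichment of 5.38, and lincRNA genes held 23 with a median of 6.59. The centre was in coding sequence in 740 peaks (85.5%) and in noncoding exon sequence in 126, with median enrichments of 6.69 and 6.45. Of 769 genes, 692 had 1 distal exon peak, 64 had 2 and 13 had 3 or more.

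Among the genes with several distal exon peaks, Tnrc18 had 4, with enrichments from 4.5 to 10.6. Sptbn4, a spectrin of axon initial segments and nodes of Ranvier, had 4 peaks from 5.55 to 9.76. In Ryr1, the calcium release channel of skeletal muscle, the 4 peaks had enrichments of 4.4, 4.6, 5.15 and 6.73, and 2 of them were below 5, the first quartile of distal exon peaks.

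Exon length was a feature that the rule did not use. The exon at the peak centre had a median length of 792 bp (quartiles 276 and 2077), and 380 of 865 peaks (43.9%) were in exons of at least 1000 bp. Reference exons with coding sequence more than 5 kb downstream of the start of their own transcript had a median of 131 bp, and 6.15% of them reached 1000 bp. Because a longer exon offers more sequence, peaks were also counted per Mb of this distal coding sequence, taken from 1 transcript per gene. The peaks were instead measured from the TSS named in the list, often of another gene. The sequence therefore includes bases close to other start sites, where no distal exon peak could be centred. The effect of this on the densities here and below was not tested. Over all 25.9 Mb there were 740 peaks centred in coding sequence, or 28.6 per Mb. Exons under 200 bp had 9.01 per Mb (126 peaks), although they held 54.1% of the sequence. Exons of 200 to 499 bp had 41.0 per Mb (178 peaks), those of 500 to 999 bp 60.3 (110), those of 1000 to 1999 bp 60.6 (131) and those of 2000 to 3999 bp 62.7 (138). Exons of 4000 bp or more had 41.8 per Mb (57 peaks). Median enrichment was 5.65 in the shortest class, 6.18 in the next and between 7 and 7.67 in the classes from 500 bp upward. Input reads per kb had medians between 6.95 and 7.66 in the 6 classes, with no order by length.

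**Figure D3:**
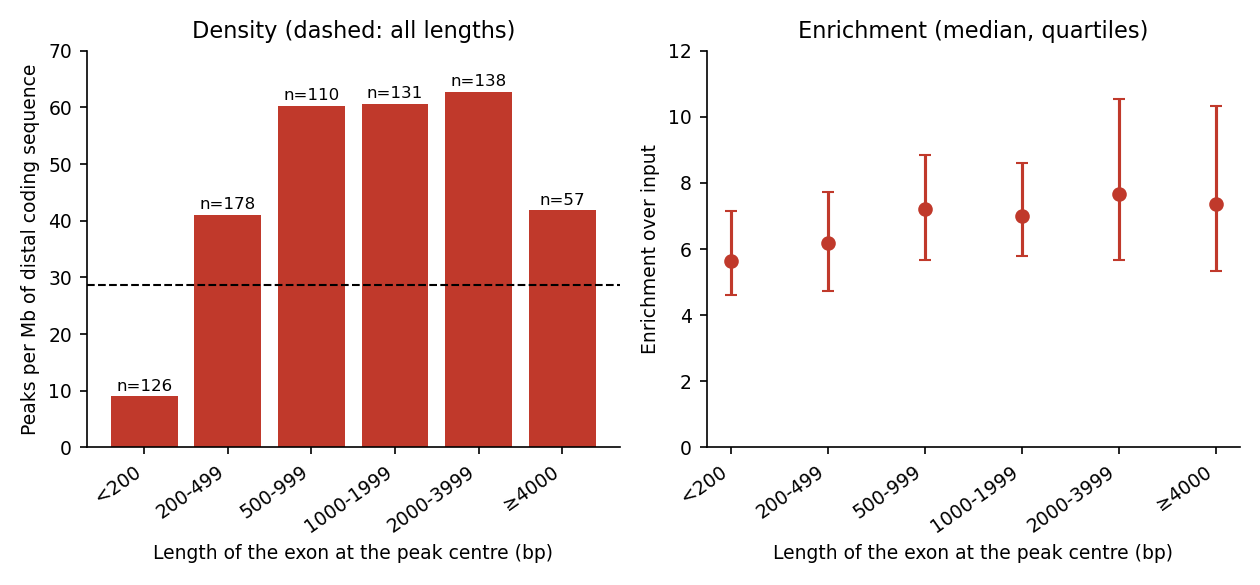
Left, distal exon peaks per Mb of distal coding sequence by the length of the exon at the peak centre, with the number of peaks above each bar and a dashed line at the value for all lengths, 28.6. Right, median enrichment over input (points) with quartiles (bars) for the same classes. Density was 9.01 per Mb in exons under 200 bp and at least 41.0 in each longer class.

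GC content separated peak-bearing exons more widely than length did. In exons with a GC content under 45% there were 1.26 peaks per Mb of distal coding sequence (9 peaks). The values were 5.97 from 45 to 50% (33 peaks), 15.8 from 50 to 55% (96), 40.6 from 55 to 60% (193), 133 from 60 to 65% (267) and 373 at 65% or more (142). The median GC content of the exons with a peak was 60.8%, and the mean over distal coding sequence was 49.9%. In every class below 65% exons of 1000 bp or more had a higher density than shorter ones. The densities were 3.86 against 0 per Mb under 45% (9 and 0 peaks) and 23.1 against 0.478 from 45 to 50% (31 and 2 peaks). They were 76.7 against 3.57 per Mb from 50 to 55%, 169 against 17.4 from 55 to 60% and 256 against 115 from 60 to 65%. At 65% or more the densities were 377 (18 peaks) and 372 (124 peaks). Median enrichment was 4.4 in the class under 45% and between 6.72 and 6.93 in the 3 classes from 55% upward. Input reads per kb had medians of 10.4, 7.92, 7.74, 7, 7.11 and 7.82 from the lowest to the highest class. The recovery of fragments by GC content in the libraries was not tested.

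**Figure D4:**
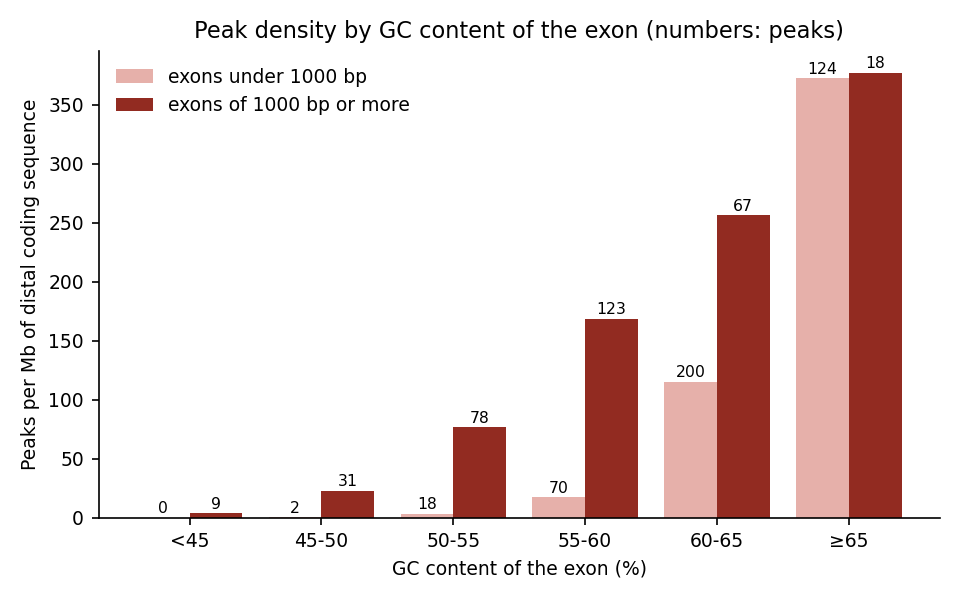
Distal exon peaks per Mb of distal coding sequence (vertical axis) by GC content of the exon (horizontal axis, %), for exons under 1000 bp (light) and of 1000 bp or more (dark), with the number of peaks above each bar. Density rose with GC content in both groups, to 372 and 377 per Mb at 65% or more.

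The rise in GC was centred on the peak. Mean GC content in bins of 100 bp was 63.9% at the centre of distal exon peaks and 50.5% at 1050 bp on the side of lower coordinates. In distal intron peaks the same bins had 56.3% and 47.0%. In the central 300 bp the median GC content was 62.3% in distal exon peaks, 56.3% in distal intron peaks and 67.3% in promoter peaks. The median ratio of observed to expected CpG there was 0.509, 0.333 and 0.805 in the same order. Distal exon peaks lay between intron and promoter peaks in both measures. The exon covered only part of the peak, with a median of 40.7% of the bases of a distal exon peak in RefSeq exons.

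**Figure D5:**
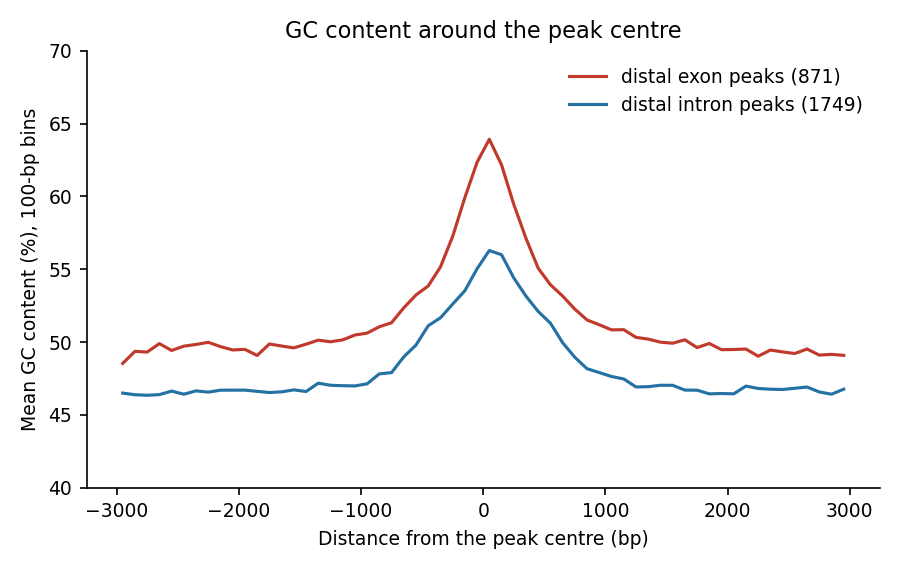
Mean GC content (vertical axis, %) in bins of 100 bp by distance from the peak centre (horizontal axis, bp) for the distal exon peaks and the distal intron peaks. Both lines are highest at the centre, at 63.9% and 56.3%, and the exon line is above the intron line at every distance shown.

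By the exon numbers in the annotation, 464 peaks were in internal exons (53.3%), 308 in last exons (35.4%), 45 in first exons and 54 in exon 1 of 1 of the annotated transcript, whose gene may have other exons. Enrichment of at least 6.6, the median of these peaks, was found in 57.5% of last exon peaks (177 of 308, 95% Wilson interval 51.9 to 62.9%) and in 47.6% of internal exon peaks (221 of 464, 43.1 to 52.2%), where 50.2% of all distal exon peaks reached it. The odds ratio was 1.49 (two-sided Fisher's exact p = 0.00812, adjusted p = 0.0142), with medians of 7.05 and 6.42. Within the peaks of enrichment 5 or more, again a selection on the compared measure, 54.5% and 49.1% reached the median of the selected distal exon peaks, 7.5 (odds ratio 1.24, Fisher's exact test, adjusted p = 0.247, the highest among its alternatives). Last exons with a peak were also longer, with a median of 2124 bp against 317 bp in internal exons. In exons of 1000 bp or more the order was the opposite, with a median enrichment of 8.21 in 86 internal exon peaks and 7.09 in 260 last exon peaks, a split chosen after the values were seen and not tested. In exons under 1000 bp the medians were 6.16 in 377 internal and 6.72 in 47 last exon peaks. Per Mb of distal coding sequence there were 54.4 peaks in last exons and 21.7 in internal exons. With 1000 bp or more, last exons had 61.4 and internal exons 44.2.

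E-boxes were searched as CACCTG and TACCTG on both strands, which takes in their reverse complements CAGGTG and CAGGTA. At least 1 was found in 824 of the 871 distal exon peaks (94.6%), with a median of 4 per peak and 43 in the Cep131 peak, and 91.0% of all peaks had one. In the central 300 bp, 419 distal exon peaks had an E-box, or 48.1% (95% Wilson interval 44.8 to 51.4%), against 43.2% (40.9 to 45.5%) of distal intron peaks, 43.4% of distal intergenic peaks and 38.0% of all peaks in the list. The share was 34.6% in promoter peaks, and 29.5% of 32851 RefSeq promoters of the same length, 300 bases, held the letters. Between exon and intron peaks the odds ratio was 1.22 (two-sided Fisher's exact p = 0.0175, adjusted p = 0.0245). The difference did not pass the threshold once matches across a splice donor were left out, with shares of 43.1% and 40.7% (odds ratio 1.10, Fisher's exact test, adjusted p = 0.299). In distal intergenic peaks, which were not tested for E-boxes, the share without such matches was 43.2%, and with CACCTG alone it was 38.9%, above the 37.3% of exon peaks. The difference from intron peaks also missed the threshold with CACCTG alone (odds ratio 1.09) and at an enrichment of 5 or more (1.03). In the central 200 bp the call was lost as well, although the odds ratio, 1.19, stayed close to 1.22. Over the alternatives of this comparison the adjusted p (Fisher's exact test) reached 0.804. Distal exon peaks with an E-box in the central 300 bp had a median enrichment of 6.76 and those without one 6.45.

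Matches across splice donors were found in 275 distal exon peaks (31.6%), in 18.4% of distal intron peaks and in 27.3% of all peaks. In the central 300 bp of distal exon peaks, 75 of 589 matches (12.7%) lay across a splice donor, against 5.34% in distal intron peaks. The rule centres these peaks in exons, at whose ends splice donors lie, so the higher shares than in intron peaks are partly set by it. In exon peaks the central share was higher for TACCTG, with 33 of 171 matches (19.3%), than for CACCTG, with 42 of 418 (10.0%). In 44 peaks the only E-boxes of the central 300 bp were of this kind. Over all matches in the central 300 bp, 46.7% read CAGGTA or CAGGTG on the sense strand of the gene in exon peaks and 51.8% in intron peaks. Matches across a splice donor read this way by definition, and without them the shares were 38.9% and 49.1%. Neither difference was tested. A match describes the letters in the sequence and not an occupied site.

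The rule of more than 5000 bp from a TSS itself leaves few peaks near one, so no result is drawn from the 18 distal exon peaks and 40 distal intron peaks whose centre lay within 1 kb of a RefSeq TSS, where the annotations differ. The authors' detailed annotation placed 51 distal exon peaks (5.86%) and 130 distal intron peaks (7.43%) in a CpG island, beside 14.6% of all peaks (odds ratio 0.775, Fisher's exact p = 0.142, adjusted p = 0.165). That annotation gives each peak 1 class, so a peak given another class, such as an exon, is not counted. Promoter peaks had a median CpG ratio of 0.805 at the centre, yet 17.3% of them had the CpG island class. The shares therefore do not measure overlap with CpG islands, and no result is drawn from them. LINE, LTR or SINE elements held 39.3% of distal intron peaks and 0.689% of distal exon peaks. None of these can be a CpG island peak either, and leaving them out only made the denominators smaller. The same 130 intron peaks were then 12.2% of 1062 and the same 51 exon peaks 5.90% of 865 (odds ratio 0.449, Fisher's exact test, adjusted p = 3.4e-06). With enrichment of at least 5 the odds ratio was 0.526 (Fisher's exact test, adjusted p = 0.00147). The adjusted p of its alternatives ranged up to 1, beyond 10 kb of the TSS, where the odds ratio was 1.01.

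Genes named for a distal exon peak more often also had a promoter peak, within 5 kb of their TSS, than genes named for a distal intron peak only. Genes named for both kinds of peak were all counted with the exon genes, and genes with exon peaks only were not compared. The shares were 61.5% of 785 genes (95% Wilson interval 58.1 to 64.9%) and 54.8% of 1262 genes (52.1 to 57.6%), and the odds were 1.32 times higher (two-sided Fisher's exact p = 0.00325, adjusted p = 0.00759). Of all 12271 genes named in the list, 81.3% had a promoter peak. The difference did not pass the threshold for promoter peaks within 1 kb (odds ratio 1.13, Fisher's exact test, adjusted p = 0.202) or with enrichment of at least 5 (1.22, adjusted p = 0.0927). When the gene that holds the exon or intron was used instead, an alternative chosen after seeing the data, the shares were 68.3% and 60.3% (odds ratio 1.42, Fisher's exact test, adjusted p = 0.00198). Peaks were also close to each other, and 419 distal exon peaks (48.1%) had another peak within 10 kb, against 37.8% of distal intron peaks and 31.9% of all peaks.

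Gene families were described by the number of genes with a distal exon peak, beside 3.11% of all protein-coding genes, and by coding peaks per Mb of distal coding sequence, beside 28.6. Neither measure was adjusted for the length or GC content of the exons, by which peak density differed widely. Differences between families cannot be told apart from differences in these features. Of 161 channel genes, 19 had such a peak (11.8%), with 29 peaks in all, 73.9 per Mb and a median enrichment of 7.09. They included Cacna1i (25.6), Cacna1g, another T-type calcium channel gene (11.6), and the potassium channel genes Kcnj14 (11.6) and Kcnk12 (11.4). Zinc finger genes, which often encode their whole finger array in 1 long last exon, had peaks in 30 of 476 genes (6.30%) and 44.3 per Mb. The highest were Zfp853 (14.1), Zfp777 (13.01), Zfp775 (12.3) and Zfp444 (12.2), each in its last exon. Of 105 motor protein genes 14 had a peak (13.33%), but per Mb they had 27.0, with Kif26a (12.4) and Myo15, an unconventional myosin of the inner ear (12), at the top. The median enrichment of the 15 peaks in motor protein genes was 5.27, below the 6.65 of all protein-coding genes. Cadherins had peaks in 7 of 105 genes (6.67%, 38.6 per Mb), among them Pcdh15 (15), Dchs2 (13.4), Cdh22 (10.5) and Celsr2 (7.65). Genes whose symbols start like those of axon guidance families had them in 8 of 80 (10%, 47.2 per Mb), with Slitrk5 (11.1), Unc5a (10.1) and Ntng2 (7.53). Slitrk5 entered this list only by the letters Slit at the start of its symbol and is not a Slit gene. Among 110 chromatin regulators 9 had a peak (8.18%), with 23.9 per Mb. Kmt2d had 2 peaks (12.7 and 9.5), and Crebbp, a histone acetyltransferase, had one in its last exon (9.46).

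The lists of signalling and cell fate genes were short, with at most 0.0660 Mb of distal coding sequence each, so their densities rest on 6 coding peaks or fewer. Of 16 Hedgehog genes 7 had a distal exon peak (43.75%, 140 per Mb). Gli2 (enrichment 11.9) and Gli1 (7.7), the transcription factors of the pathway, were among them, as were Disp3 (11.2) and Disp2 (7.45), relatives of the Dispatched protein that releases Hedgehog ligands. The Gli2 peak had 115 treatment and 19.3 input reads and was centred in the last exon of 4046 bp. In the Notch list 3 of 25 genes had a peak (12%, 79.7 per Mb), which were Jag2 (12.7), Notch3, in exon 24 and in the last exon (8.73 and 8.2), and Maml3, a coactivator (5.65). In the Wnt list 5 of 52 genes had one (9.62%, 75.7 per Mb), among them Apc2 (16.8), the receptor gene Lgr6 (7.94) and the ligand genes Wnt4 (7.39) and Wnt7b (6.91). Of 14 pluripotency genes, Esrrb and Klf5 had distal exon peaks (14.3%), and their 3 coding peaks made 318 per Mb over 0.00944 Mb. Esrrb, an orphan nuclear receptor of naive mESC, had 2, in exon 2 (31 treatment and 7.4 input reads, enrichment 8.84) and in exon 7 (23 and 5.5 reads, 10.2). Klf5, a Krüppel-like factor, had 1 in its last exon with 35 treatment and 13.5 input reads (5.1). In the mesendoderm list 1 of 16 genes had a distal exon peak (6.25%, 85.5 per Mb), Wnt7b, in its last exon of 2432 bp with 68.7 treatment and 20.3 input reads.

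Other lists had fewer peaks per Mb than all protein-coding genes. Collagens and laminins had peaks in 3 of 56 genes (5.36%), a higher share than the 3.11% of all genes, but 15.4 per Mb against 28.6. They were Lama5 (8.39), Col6a2 (6.5 and 5.85) and Col6a3 (4.1). Solute carriers had them in 11 of 385 genes (2.86%, 20.4 per Mb), with Slc12a5 (20.2) and Slc35f3 (12) above the others. The median enrichment of the 13 peaks in solute carriers was 4.35, against 6.65 in all protein-coding genes. Of 58 Adamts and Adam protease genes, 1 had a peak, Adamts16 (9.35), or 7.82 per Mb. None was found in 1464 odorant and vomeronasal receptor genes, in 39 Hox genes or in 52 epithelial genes. The epithelial list was taken by symbol and holds targets of Zeb1 such as Cdh1, but also whole families such as the claudins. The distal coding sequence of these 3 lists was 0.543, 0.00525 and 0.0344 Mb, so that for the Hox and epithelial genes few or no peaks would be seen at the density of all genes.

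Chr. 7 held 107 distal exon peaks and Chr. 8 held 90, or 8.07% and 6.80% of the peaks on these chromosomes. Per Mb of distal coding sequence, coding peaks numbered 60.2 on Chr. 8, 49.9 on Chr. 7 and 41.97 on Chr. 15. The lowest values were 10.1 on Chr. 3 and 1.11 on Chr. X, where 2 of 275 peaks were distal exon peaks.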

How the data were processed

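ChIP-seq of 3 Zeb1 libraries and 1 input library was used as a unified peak list. From each sample the authors took 30 M reads, which STAR 2.4.2a aligned to mm10 and Picard 1.136 cleared of duplicates. PeakRanger peaks of 20 or more treatment reads and a 2-fold ratio to input that occurred in 2 or more libraries were merged and given HOMER 4.7 annotations. The deposited read columns are a signal, mean reads per peak. The deposited enrichment is a ratio of treatment to input reads, scaled for mapped reads and averaged by the authors, so it differs from the ratio of the printed reads (median factor 2.07). The deposited p-value is 0 for every peak and was not used.

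Sequence and exons came from GRCm38.p6 (45756 curated RefSeq transcripts) and GENCODE. Shares were compared by two-sided Fisher's exact tests with Benjamini-Hochberg adjustment over 7 tests (1 of them, on RefSeq TSSs, void by the distance rule) and a threshold of 0.05, tested on simulated data first. For each alternative, its p replaced that of the result among the 7. Tests over peaks describe this list, and intervals cover counting error only. Named peaks were the 15 most enriched, the 10 with most treatment reads, the 5 longest, those of the 5 genes with most peaks, 3 on each side of 5000 bp, and up to 4 per gene list; some of these are not reported here. Members and lists were chosen with earlier results of these data known. Python 3.11.15, SciPy 1.17.1, pandas 2.3.3 and pysam 0.24.0 were used.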

Additional observations from a re-analysis of the deposited data

How the results depend on the processing

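Of 47 recomputed values, 33 kept their direction and their side of the threshold (for counts of peaks, stayed within 1.5 times), 10 lost the call, 2 gained one and 2 changed direction. Of the 33, 6 belong to the comparison of reference TSSs, which the distance rule makes void, and say nothing about stability. Restricting to enrichment of at least 5 lost 4 calls, with odds ratios of 1.12 for enrichment against intron peaks, 1.24 for last against internal exons, 1.03 for the E-box and 1.22 for promoter peaks, and gained the CpG island call (0.526). The E-box call was also lost with 1 peak per gene (1.15), without peaks near a reference TSS (1.19), in 200 bp (1.19), without splice donor matches (1.10) and with CACCTG only (1.09), and the promoter call with 1 kb (1.13). Without retrotransposon peaks the CpG island odds ratio was 0.449, and beyond 10 kb it turned to 1.01. With treatment reads per kb the comparison with intergenic peaks turned to 0.925. For both enrichment comparisons the limit of 5 selects on the compared measure and the share is taken at a new median, and no retrotransposon peak can be a CpG island peak, so the CpG counts stay the same over smaller totals. A peak given any other class is not counted as a CpG island peak, so no result is drawn from the CpG calls. The causes were not tested. The number of distal exon peaks was 657 at enrichment of at least 5, 1044 beyond 3 kb, 615 beyond 10 kb and 1208 by RefSeq exons and TSSs, of which 737 were shared, or 84.6% of the 871 and 61.0% of the 1208. Settings with at least 5 input reads, with the holding gene, and without retrotransposons at 1500 bp and longer were chosen after seeing the data and changed no call. Leaving out each library was not run, since it needs values per library. No paired analysis was possible because the list carries no replicate numbers. The list does not give the number of aligned reads per library, and peaks with few input reads have the least certain enrichment.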
